A study of Rattus norvegicus with 13 samples.

Results

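The anterior Hox genes are the homeobox transcription factors of the Hox clusters that act first along the head to tail axis. Described here are 9 of them, Hoxa2, Hoxa4, Hoxa5, Hoxb2, Hoxb3, Hoxb4, Hoxc4, Hoxc5 and Hoxd1, out of 22 Hox genes and 14506 genes measured. They were taken by symbol from the annotation of the array, and each is read by 1 probe set. The cells were cultured from adult Sprague Dawley rats, and their RNA was hybridised to Affymetrix Rat Gene 1.0 ST arrays. Skin-derived precursors (SKPs), dermal cells kept in culture as precursors, came from dorsal trunk, ventral trunk and facial skin (3 isolates each). The fourth group was mesenchymal stromal cells (MSCs, 4 isolates). All 13 isolates had been passaged 2 times. No group carried a transgene or a treatment in the labels, and the tissue of origin of the MSCs is not given in the sources used here.

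In the embryo, Hox genes lie in 4 clusters (A to D) and are switched on in the order in which they lie, those at the 3′ end first and furthest toward the head. Genes of the same number in different clusters are paralogues that arose by duplication. The neural crest that forms the face carries little Hox expression, whereas somites and lateral plate mesoderm, from which trunk dermis comes, carry a Hox code that adult fibroblasts are known to keep in culture. Hox proteins bind DNA together with Pbx and Meis partners, and retinoic acid is a classic inducer of the anterior genes. The title of the series asks whether precursors from skin of distinct embryonic origin converge on one cell type. Hox levels are described here by region of skin, and their tie to embryonic origin was not tested.

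Promoter windows from RefSeq (GRCr8) were matched for 4 of the 9 genes. Those of Hoxc4 and Hoxd1 are printed because Hoxc4 differed between facial and trunk SKPs and no difference in Hoxd1 passed there, and that of Hoxd4 because it is a paralogue of Hoxc4 that moved with it. Each run is the 250 bases before the annotated start, 5′ to 3′ on the strand of the gene. Capitals mark matches, on either strand, to AGGTCA (a nuclear receptor half-site that retinoid receptors bind), TGATNNAT (a Hox and Pbx site) or CCAAT; these motifs do not contain one another.
Hoxc4, chr7:136048809-136049058, + strand: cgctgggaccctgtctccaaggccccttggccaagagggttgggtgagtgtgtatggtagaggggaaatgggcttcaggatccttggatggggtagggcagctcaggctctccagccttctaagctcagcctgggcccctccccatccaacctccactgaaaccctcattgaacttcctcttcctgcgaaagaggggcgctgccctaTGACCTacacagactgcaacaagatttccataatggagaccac
Hoxd4, chr3:80021636-80021885, + strand: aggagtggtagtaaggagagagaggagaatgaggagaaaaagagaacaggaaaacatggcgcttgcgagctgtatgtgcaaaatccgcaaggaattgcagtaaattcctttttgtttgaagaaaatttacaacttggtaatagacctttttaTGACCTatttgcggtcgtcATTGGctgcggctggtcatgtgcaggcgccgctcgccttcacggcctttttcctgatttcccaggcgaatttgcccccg
Hoxd1, chr3:80072791-80073040, + strand: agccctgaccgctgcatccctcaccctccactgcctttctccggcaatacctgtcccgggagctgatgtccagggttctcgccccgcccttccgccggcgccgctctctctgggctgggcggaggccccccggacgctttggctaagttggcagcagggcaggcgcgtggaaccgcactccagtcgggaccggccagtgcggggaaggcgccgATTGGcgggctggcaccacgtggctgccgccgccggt

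The Hoxc4 and Hoxd4 windows each held 1 match to AGGTCA and the Hoxd1 window 0, where 14.1% of 33469 windows of this length hold one. CCAAT was matched 1 time in Hoxd4, 1 time in Hoxd1 and 0 times in Hoxc4 (34.0% of windows), and TGATNNAT in none of the 3 (7.96%). The windows differed in base composition, with a GC content of 57.2% in Hoxc4, 47.2% in Hoxd4 and 71.6% in Hoxd1 (median of all windows 51.2%). An ATG follows the annotated start of Hoxd1 closely, so transcription may start further upstream there. The Hoxa2 window, not printed, held 0 matches to AGGTCA, 1 to TGATNNAT and 4 to CCAAT. Hoxa2 was also called lower in facial than in trunk SKPs, below background. The Hoxa4 window, not printed either, held 0 matches to each motif. An ATG follows its annotated start closely too, so the limit given for Hoxd1 holds for Hoxa4. A match is a run of letters, not a measured binding site.

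The SKP markers Sox2, Nes, Snai2, Twist1, Ngfr, Pax3, Vcan and Crabp1 had a mean of 6.71 to 8.52 (log2) over the SKP arrays. It was 6.73 to 7.05 over those of MSCs, and the lowest SKP value was on dorsal array 3. Sox2, Twist1, Ngfr and Crabp1 were higher in each SKP region than in MSCs. Pax3 was at 8.68 in facial, 4.23 in dorsal and 4.02 in ventral SKPs and 4.34 in MSCs. Snai2 was highest in MSCs (8.93). Nes was lower in dorsal and facial SKPs than in MSCs, and Vcan in dorsal SKPs. The mean of stromal surface markers was higher on the facial arrays, at 10.27 to 10.63. It was 8.52 to 9.62 on the dorsal, 9.54 to 9.77 on the ventral and 8.71 to 9.49 on the MSC arrays. Keratinocyte markers had a mean of 3.49 to 3.84. Markers of other cells moved with the groups: the mean of 14 leukocyte markers was 7.99, 6.47 and 10.21 on the facial arrays, 4.43 to 7.34 on the dorsal, 5.50 to 5.85 on the ventral and 4.32 to 4.91 on the MSC arrays. The mean of melanocyte markers was lower on the facial arrays (4.60 to 5.34) than on the dorsal (5.59 to 6.10) and ventral (5.50 to 5.77). It was lowest in MSCs (4.01 to 4.44). Endothelial markers were higher on the ventral arrays (4.96 to 5.54) than on the others (3.52 to 4.21). Smooth muscle markers were higher in MSCs (8.81 to 10.26) than in SKPs (4.96 to 5.45). So was the mean of cell cycle genes (7.82 to 8.69 in MSCs, 4.68 to 7.14 in SKPs). Correlations between arrays across genes were lowest within the dorsal group (from 0.96). Dorsal array 3 stood apart from dorsal arrays 1 and 2, with a cell cycle mean of 4.68 against 7.14 and 6.59, and a hypoxia and glycolysis mean of 9.84 against 8.16 and 8.25. In bulk cultures, fewer cells of a type and less RNA per cell cannot be told apart.

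Levels below are log2 values as deposited. As background served the level under which 95% of 1105 olfactory receptor genes lay. It was 4.03 in dorsal and in facial SKPs, 4.04 in MSCs and 3.94 in ventral SKPs. Hoxa2 and Hoxb2 were below it in all 4 groups, and Hoxa5 and Hoxc5 in facial SKPs alone. Differences came from a limma fit over all 13 arrays, and one is called where its p, adjusted by Benjamini-Hochberg over all 14506 genes, is under 0.05. Levels of different genes are not compared, since probe sets differ in response.

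**Figure D1:**
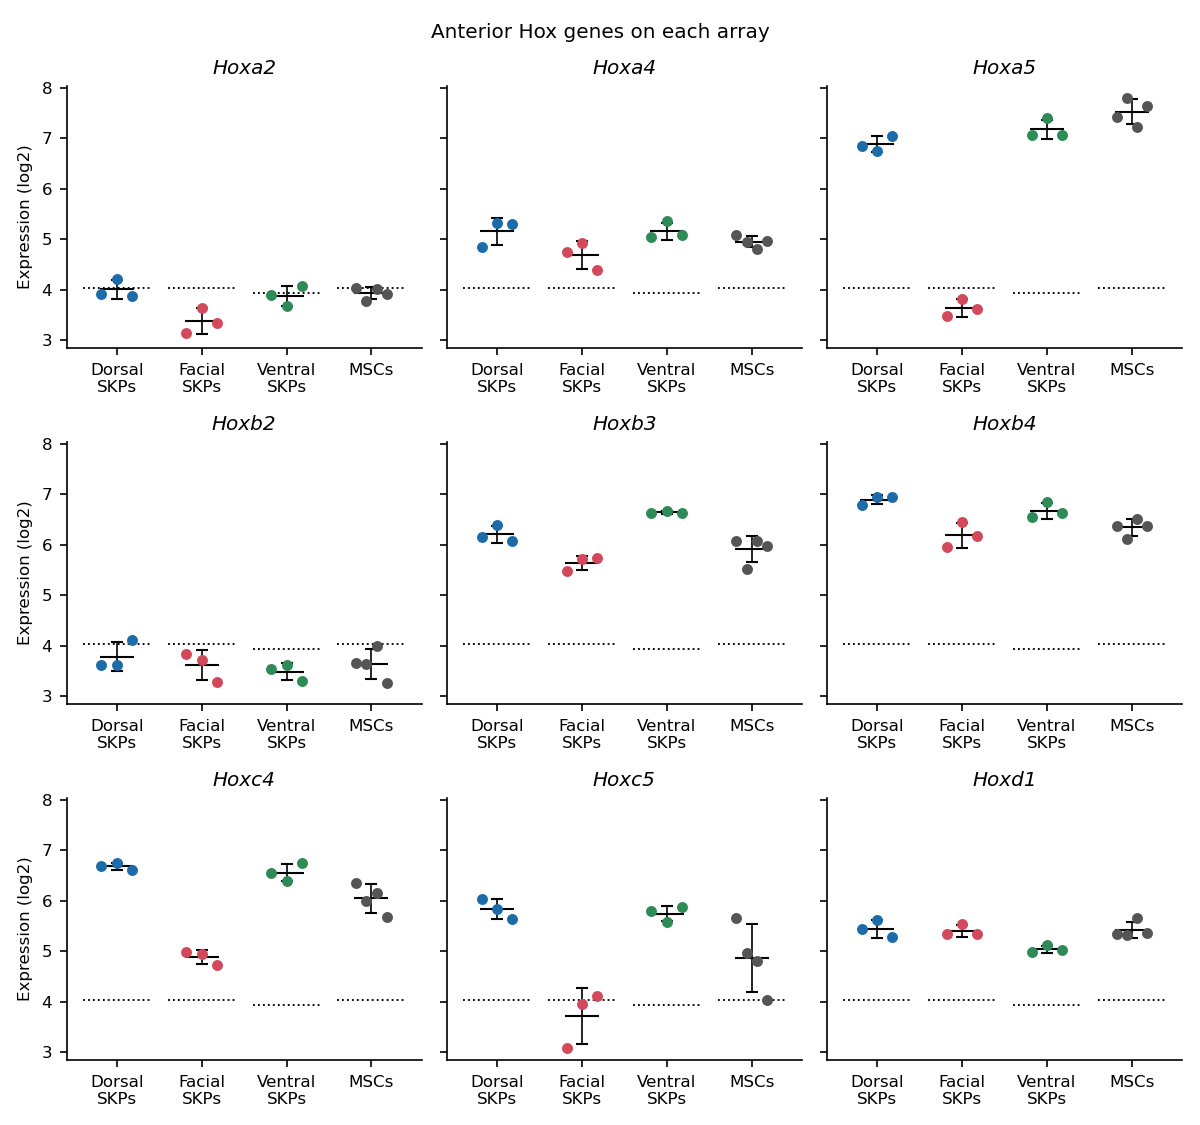
Expression (log2, vertical axis) of each of the 9 anterior Hox genes on every array, by group; points are arrays, horizontal marks with bars are the mean and SD (n = 3 for each SKP region, n = 4 for MSCs), and dotted lines are the background of each group. The facial points of Hoxa5 lie between 3.47 and 3.83, below the dotted line, while all other points of that gene lie at 6.76 or above.

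Most of the anterior Hox genes were called lower in facial than in trunk SKPs, with Hoxa5, Hoxc5 and Hoxc4 furthest apart. Trunk stands for the average of the dorsal and ventral means. In facial minus trunk, 6 of the 9 genes were called lower and 0 higher, where 2.7% of all genes were called, 1.42% lower and 1.28% higher. Hoxa2, among the 6, was below background on both sides. The median difference of the 9 genes was -0.59, against -0.02 over all genes. All 3 facial arrays lay below all 6 trunk arrays in 6 of the 9 genes, as in 4.3% of all genes, and below all 10 other arrays in 3 of them, as in 1.82% of all genes. The means of stromal surface and melanocyte markers also separated the facial from the trunk arrays, and their part in the result was not tested. Of 8 stromal surface markers, 2 were called higher in facial SKPs, Vcam1 (3.98) and Alcam (2.02). Of 5 measured melanocyte markers, 0 were called. Leukocyte markers overlapped, with facial array 2 (6.47) below dorsal array 1 (7.34). Without facial array 1 the count of called genes was 3, with Hoxa2, Hoxb3 and Hoxb4 lost, and without dorsal array 3 and facial array 3 it was 4. It was also 3 with the leukocyte mean as a covariate and 3 with sample number as a block. Hoxa5, Hoxc4 and Hoxc5 were called in each of the 26 alternatives of this comparison.

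Hoxa5, a factor of cervical and upper thoracic identity that also patterns the lung and respiratory tract, separated the facial cells most. It read 3.47, 3.83 and 3.63 on the facial arrays, 6.85, 6.76 and 7.06 on the dorsal, 7.07, 7.40 and 7.07 on the ventral, and 7.43, 7.80, 7.23 and 7.65 on the MSC arrays. The facial arrays were the lowest by far and did not overlap with any other, whereas dorsal arrays were the lowest of the rest. The facial mean minus the trunk mean was -3.39 (SE 0.14, adjusted p = 3.75e-07). This was the difference of rank 17 by size among all genes. Since the facial mean lay below background, the ratio is given as a bound, at least 8-fold lower in facial than in trunk SKPs. The differences from dorsal (-3.25, SE 0.16, adjusted p = 3.19e-06) and ventral SKPs (-3.54, SE 0.16, adjusted p = 1.2e-06) were each called.

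Hoxc5 and Hoxc4, neighbours in the C cluster that belong to paralogue groups 5 and 4, followed. Hoxc5 read 3.08, 3.95 and 4.12 on the facial arrays, 6.04, 5.84 and 5.64 on the dorsal, 5.79, 5.58 and 5.88 on the ventral, and 5.66, 4.96, 4.81 and 4.04 on the MSC arrays. Facial arrays were below all trunk arrays, but the MSC arrays spanned the gap between them, and MSC array 4 lay within the facial range. Hoxc5 was at least 3.39-fold lower in facial than in trunk SKPs (-2.08, SE 0.31, adjusted p = 0.00422). Facial minus dorsal (-2.12, SE 0.35, adjusted p = 0.0126) was not called in a fit of those 2 groups alone (adjusted p = 0.07) nor with the leukocyte mean as a covariate (-2.48, adjusted p = 0.0799, the highest over its alternatives).

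Hoxc4 was above background in every group. It read 5.0, 4.95 and 4.73 on the facial arrays, 6.69, 6.75 and 6.62 on the dorsal, 6.54, 6.40 and 6.74 on the ventral, and 6.35, 6.0, 6.16 and 5.68 on the MSC arrays. The facial arrays were below all others with no overlap. Hoxc4 was 3.32-fold lower in facial than in trunk SKPs (-1.73, SE 0.14, adjusted p = 5.56e-05). It was 3.47-fold lower than in dorsal (-1.80, SE 0.16, adjusted p = 0.000135) and 3.18-fold lower than in ventral SKPs (-1.67, SE 0.16, adjusted p = 0.000178).

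The 2 B cluster genes above background, Hoxb3 and Hoxb4, differed by less. Hoxb3, of paralogue group 3, which acts in the hindbrain and pharyngeal arches, read 5.49, 5.73 and 5.73 on the facial arrays, 6.15, 6.39 and 6.08 on the dorsal, 6.63, 6.67 and 6.64 on the ventral, and 6.08, 5.53, 6.08 and 5.97 on the MSC arrays. Facial arrays lay below all trunk arrays but overlapped with MSC array 2. The difference from trunk was -0.78 (SE 0.13, adjusted p = 0.0104), and it was lost without facial array 1 (-0.70, adjusted p = 0.0508), with the replicate block (adjusted p = 0.0509) and with the leukocyte mean (adjusted p = 0.159, the highest over its alternatives). Against ventral SKPs the difference was -0.99 (SE 0.15, adjusted p = 0.0029), called under all 26 alternatives. Against dorsal SKPs it was -0.56 (95% confidence interval -0.89 to -0.23) and did not pass (adjusted p = 0.121), passing only without MSC array 2 (0.0438) or without MSC arrays 1 and 2 (0.0478; 0.0438 to 0.495 over the alternatives).

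Hoxb4, a factor known for its role in blood stem cells, read 5.95, 6.45 and 6.18 on the facial arrays, 6.79, 6.94 and 6.95 on the dorsal, 6.54, 6.86 and 6.63 on the ventral, and 6.37, 6.12, 6.51 and 6.38 on the MSC arrays. Facial and trunk arrays did not overlap, by a narrow margin, and the facial and MSC ranges did. Hoxb4 differed from trunk by -0.59 (SE 0.12, adjusted p = 0.0312). It no longer passed without facial array 1 or 3 or without any 1 of the 3 ventral arrays (adjusted p = 0.0554 to 0.115), and in 4 other settings (0.0549 to 0.425). Facial minus dorsal was -0.70 (SE 0.14, adjusted p = 0.0397) and was lost in 17 of 26 alternatives, with an adjusted p of up to 0.432. The arrays whose removal ended that call were all 3 dorsal arrays, facial arrays 1 and 3, MSC arrays 1 and 4 and ventral arrays 1 and 3 (adjusted p = 0.0519 to 0.123). Facial minus ventral was -0.48 (adjusted p = 0.069) and passed without facial array 2 (0.0384) and with array weights (0.0266; 0.0266 to 0.465 over the alternatives).

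Of the remaining 4 genes, 1 passed in facial minus trunk. Hoxa2, which sets the identity of the second pharyngeal arch, read 3.14, 3.65 and 3.34 on the facial arrays, 3.92, 4.22 and 3.88 on the dorsal, 3.89, 3.68 and 4.07 on the ventral, and 4.04, 3.78, 4.02 and 3.91 on the MSC arrays. The facial arrays were the lowest without overlap, but all 4 group means were below background, so no fold is given. Its difference from trunk was -0.56 (SE 0.13, adjusted p = 0.0465), a call lost in 18 of 25 alternatives. It was lost on leaving out any 1 array other than dorsal array 3 or facial array 2 (adjusted p = 0.055 to 0.162), and reached 0.457 with the leukocyte mean. In the single region comparisons it did not pass, at -0.63 against dorsal (adjusted p = 0.0831) and -0.50 against ventral SKPs (adjusted p = 0.0777). It passed in both without facial array 2 (0.0462 and 0.0422) and after quantile normalisation again (0.0469 and 0.0384), with ranges of 0.0462 to 0.529 and 0.0276 to 0.413 over the alternatives.

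Hoxa4, a paralogue of Hoxb4 and Hoxc4, did not pass. Its facial mean was 4.69 ± 0.27 (SD, n = 3), against 5.16 ± 0.26 in dorsal SKPs, 5.16 ± 0.17 in ventral SKPs and 4.96 ± 0.12 in MSCs (n = 4). Facial minus trunk was -0.47 (95% confidence interval -0.78 to -0.16, adjusted p = 0.103), with 1 facial array above the lowest dorsal array.

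Hoxd1, a gene of the foremost paralogue group, was not called either. It read 5.34, 5.54 and 5.34 on the facial arrays, 5.44, 5.62 and 5.28 on the dorsal, 4.99, 5.12 and 5.02 on the ventral, and 5.34, 5.33, 5.65 and 5.36 on the MSC arrays. Ventral arrays were the lowest, below all others, and facial and dorsal arrays overlapped. Facial minus trunk was 0.16 (95% confidence interval -0.07 to 0.40, adjusted p = 0.467).

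Hoxb2, a hindbrain gene, was below background in every group, at 3.61 ± 0.30 (SD) in facial, 3.78 ± 0.29 in dorsal, 3.49 ± 0.17 in ventral SKPs and 3.64 ± 0.30 in MSCs. All 4 groups overlapped, and facial minus trunk was -0.02 (95% confidence interval -0.42 to 0.38, adjusted p = 0.971).

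**Figure D2:**
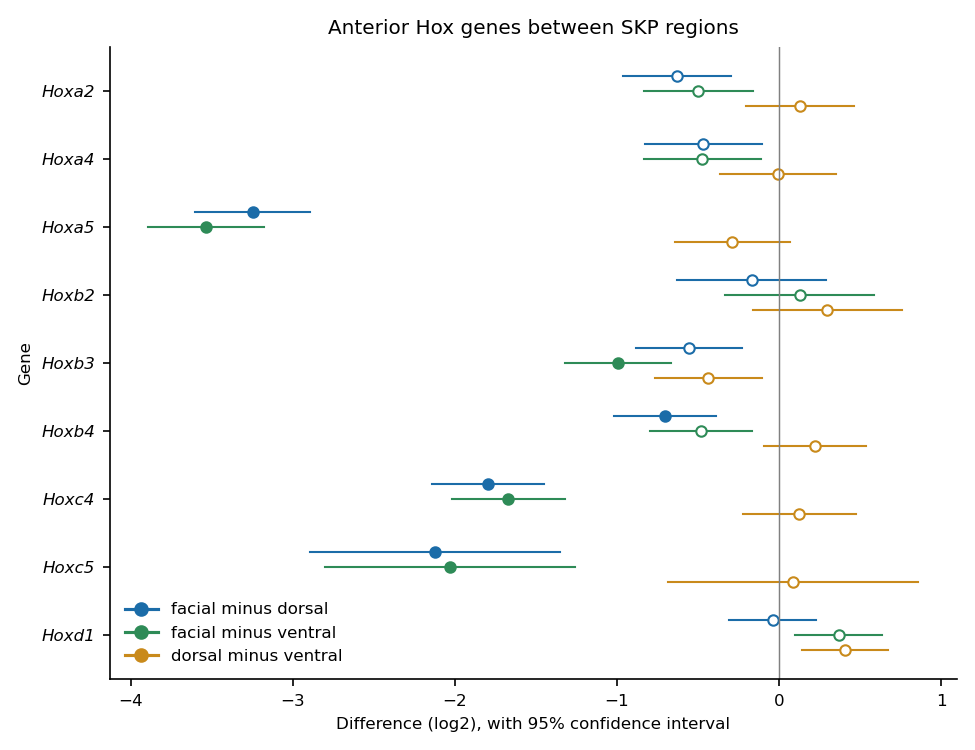
Differences between SKP regions (log2, horizontal axis) for the 9 anterior Hox genes, with 95% confidence intervals from the limma fit; filled points were called at an adjusted p under 0.05 and open points were not. Hoxa5, Hoxc4 and Hoxc5 lie between -3.54 and -1.67 in both facial comparisons, while all points of dorsal minus ventral are open.

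Between the 2 trunk regions, 0 of the 9 genes passed, where 6.11% of all genes did, 2.35% higher and 3.76% lower in dorsal SKPs (limma; 2 of the 9 had an unadjusted p under 0.05). Those 2 were Hoxb3, at -0.44 (95% confidence interval -0.76 to -0.11, adjusted p = 0.114), and Hoxd1, at 0.41 (0.14 to 0.67, adjusted p = 0.075). Hoxb3 read higher on all 3 ventral arrays than on any dorsal array, and Hoxd1 lower. Hoxd1 passed without dorsal array 3 (0.49, adjusted p = 0.0465) and with array weights (0.0134; 0.0134 to 0.206 over the alternatives), and Hoxb3 passed without MSC array 2 (0.048; 0.048 to 0.249). For Hoxa5 the difference was -0.29 (-0.64 to 0.07), for Hoxc4 0.13 (-0.22 to 0.47) and for Hoxc5 0.09 (-0.68 to 0.86). The intervals of Hoxa5, Hoxc4 and Hoxc5 leave room for differences between dorsal and ventral cells. They leave none for differences as large as those of the same genes between facial and trunk cells. By the single region comparisons, 4 of 9 genes were called lower in facial than dorsal SKPs and 0 higher, where 1.25% of all genes were called, 0.462% lower and 0.793% higher. Against ventral SKPs it was 4 of 9 lower and 0 higher, where 6.6% of all genes were called, 4.36% lower and 2.25% higher.

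Against MSCs, Hoxc4 was called higher in both trunk regions and lower in facial SKPs. Facial SKPs were called lower than MSCs in 4 of 9 genes and higher in 0 (19% of all genes were called, 9.58% lower and 9.47% higher). Dorsal SKPs were called higher in 2 genes and lower in 1 (16.5% of all genes, 8.77% and 7.76%), and ventral SKPs higher in 2 and lower in 1 (24.4% of all genes, 13% and 11.4%). All 3 comparisons share the 4 MSC arrays. The means of smooth muscle markers, cell cycle genes and melanocyte markers also separated MSC from SKP arrays. Those of leukocyte and stromal surface markers, among others, separated the facial from the MSC arrays. With the leukocyte mean as a covariate, 2 genes were called in facial minus MSCs. The part of the other markers in these results was not tested.

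**Figure D3:**
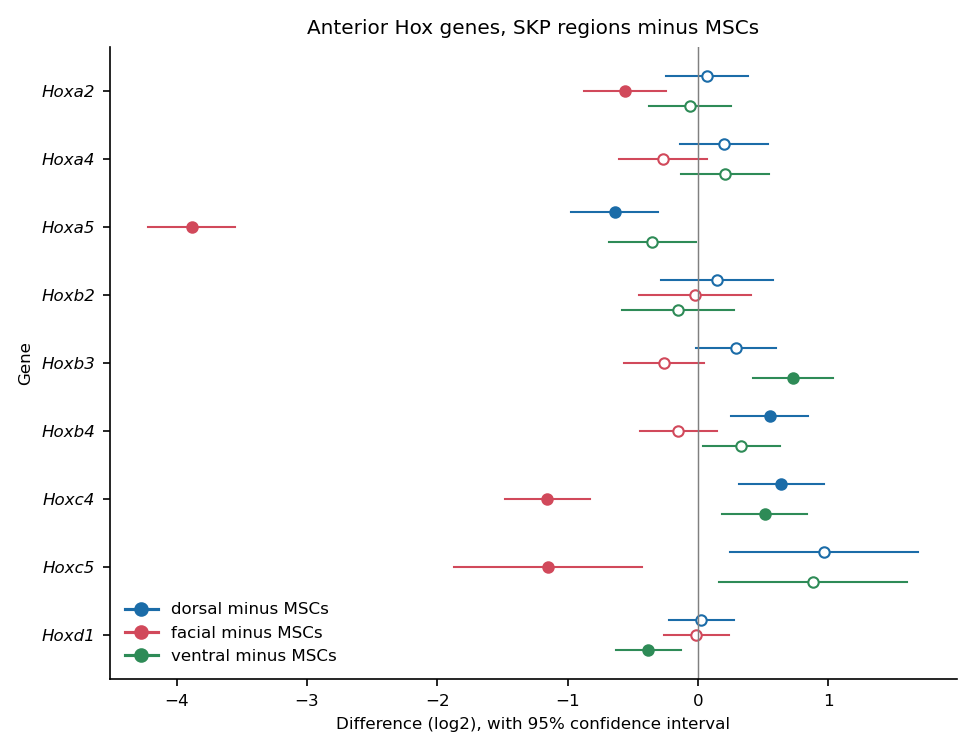
Differences of each SKP region from MSCs (log2, horizontal axis) for the 9 anterior Hox genes, with 95% confidence intervals from the limma fit; filled points were called at an adjusted p under 0.05 and open points were not. Hoxc4 lies at 0.64 and 0.51 for dorsal and ventral SKPs and at -1.16 for facial SKPs.

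Hoxc4 was 1.56-fold higher in dorsal SKPs (0.64, SE 0.15, adjusted p = 0.0116) and 1.43-fold higher in ventral SKPs (0.51, SE 0.15, adjusted p = 0.0253) than in MSCs, and 2.23-fold lower in facial SKPs (-1.16, SE 0.15, adjusted p = 0.000257). In ventral SKPs it was no longer called when MSC array 2 or 4 or ventral array 1 or 3 was left out (adjusted p = 0.0512 to 0.115), without MSC arrays 3 and 4 (0.0944) and with the replicate block (0.39, adjusted p = 0.0751). In a fit of the 2 groups alone, both the dorsal (0.0575) and the ventral call (0.0602) were lost. Hoxc5 had the same order of groups, dorsal over ventral over MSCs over facial, with wide errors. Its values were 0.97 in dorsal (adjusted p = 0.0676) and 0.88 in ventral SKPs (adjusted p = 0.0742), which did not pass, and -1.15 in facial SKPs (SE 0.33, adjusted p = 0.0299).

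The Hoxc5 calls changed with the MSC arrays used, among other settings. Within the MSC group, Hoxc5 fell from isolate 1 to isolate 4 (5.66, 4.96, 4.81 and 4.04), with the smallest step between isolates 2 and 3. Smooth muscle markers did fall into pairs, at 8.81 and 8.92 on arrays 1 and 2 and 10.03 and 10.26 on arrays 3 and 4. Their part in the result was not tested. Without MSC array 1 the dorsal and ventral differences passed, at 1.24 (adjusted p = 0.0146) and 1.15 (adjusted p = 0.0158). They were 1.42 and 1.33 without MSC arrays 1 and 2 (adjusted p = 0.0126 and 0.0133, with 0.0126 to 0.332 and 0.0133 to 0.376 over the alternatives). The dorsal difference also passed without facial array 1 (0.0489). The facial difference was lost without facial array 1 or 2 or MSC array 1, 2 or 3 (-1.27 to -0.83, adjusted p = 0.0505 to 0.127), and was -0.71 without MSC arrays 1 and 2 (adjusted p = 0.165, the highest over its alternatives). It was also lost with the leukocyte covariate (-1.66, adjusted p = 0.12) and in a fit of the 2 groups alone (0.0974).

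Hoxa5 had another order, highest in MSCs, then ventral, dorsal and facial SKPs. Facial SKPs were at least 11.3-fold lower than MSCs (-3.89, SE 0.15, adjusted p = 7.41e-08). Dorsal SKPs were 1.56-fold lower (-0.64, SE 0.15, adjusted p = 0.0131), with no overlap between the arrays. The dorsal call was lost without dorsal array 2 (-0.57, adjusted p = 0.0508), in a fit of the 2 groups alone (0.0537) and without MSC arrays 1 and 2 (0.0599, the highest over its alternatives). Ventral SKPs and MSCs, its upper neighbours, did not differ beyond the threshold (-0.35, 95% confidence interval -0.68 to -0.02, adjusted p = 0.123), and passed without MSC array 3 (0.0485) or with array weights (0.0323; 0.0323 to 0.343 over the alternatives).

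Hoxb3 was 1.66-fold higher in ventral SKPs than in MSCs (0.73, SE 0.14, adjusted p = 0.00269), called under all alternatives run, and its order was ventral, dorsal, MSCs, facial. Facial SKPs and MSCs were neighbours that did not pass (-0.26, adjusted p = 0.231) other than without MSC array 2 (-0.39, adjusted p = 0.0354; 0.0354 to 0.655 over the alternatives). Hoxb4 was 1.47-fold higher in dorsal SKPs than in MSCs (0.55, SE 0.13, adjusted p = 0.0152), lost without dorsal array 3 and facial array 3 together (0.0571) and without MSC arrays 1 and 2 (0.0831, the highest over its alternatives). Its order was dorsal, ventral, MSCs, facial, and each of those neighbours missed the threshold against the next.

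Hoxd1 was 1.30-fold lower in ventral SKPs than in MSCs (-0.38, SE 0.11, adjusted p = 0.0303). It did not hold when MSC array 3 or any 1 ventral array was left out (adjusted p = 0.0537 to 0.104), without MSC arrays 3 and 4 (-0.30, adjusted p = 0.129), with the replicate block (-0.40, adjusted p = 0.0652), with the leukocyte covariate (-0.35, adjusted p = 0.0705) or with arrays centred on their median (0.0527). Endothelial markers moved the other way, higher on the ventral arrays, and their part was not tested. Hoxa2 was lower in facial SKPs than in MSCs (-0.56, SE 0.14, adjusted p = 0.018), both below background, a call lost without facial array 1 or 3 (0.0792 and 0.0603), without MSC arrays 3 and 4 (0.0816) and with the replicate block (0.0642), with up to 0.441 over the alternatives. Hoxa4 and Hoxb2 did not pass in any of the comparisons. Over all 4 groups at once, 6 of the 9 genes passed the moderated F test, where 28.0% of all genes did; Hoxa4, Hoxb2 and Hoxd1 did not.

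The spread between isolates was largest for Hoxc5, with an SD of 0.67 in MSCs and 0.56 in facial SKPs. Taking the 9 genes together, the median SD was 0.25 in facial SKPs and in MSCs and 0.17 in both trunk regions. The smallest was that of Hoxb3 in ventral SKPs (0.023).

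The other measured Hox genes were read in facial minus trunk too. Of 39 Hox genes in RefSeq, 22 were measured here. Of the 13 outside the anterior set, 3 were called lower in facial than in trunk SKPs and 0 higher, where 1.42% of all genes were called lower and 1.28% higher. The 3 were Hoxd4, a paralogue of Hoxc4 (4.70 ± 0.20 (SD) in facial, 5.45 ± 0.015 in dorsal, 5.54 ± 0.053 in ventral SKPs and 5.46 ± 0.020 in MSCs), Hoxa7 and Hoxc9. The facial difference from trunk was -0.79 for Hoxd4 (SE 0.09, adjusted p = 0.000693) and -0.95 for Hoxa7 (SE 0.14, adjusted p = 0.00479). Hoxc9, of paralogue group 9, was at least 6.5-fold lower (-3.35, SE 0.19, adjusted p = 2.71e-06). Hoxa11, Hoxb9, Hoxc12 and Hoxd10 were below background in all SKPs. With these and the Hox genes not measured, how far the facial difference reached along the clusters cannot be told. Hoxa11 ran from 5.28 to 8.46 on the MSC arrays.

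By cluster, the A and C clusters held the largest differences. In the C cluster Hoxc4, Hoxc5 and Hoxc9 were all called lower in facial SKPs, and Hoxc12, below background, was not (-0.17, adjusted p = 0.54). In the A cluster Hoxa5 and Hoxa7 were called, as was Hoxa2, below background, with Hoxa4, which lies beside Hoxa5, at -0.47. In the B cluster Hoxb3 and Hoxb4 were called, and Hoxb7 (-0.31, adjusted p = 0.377), Hoxb8, Hoxb9 and Hoxb13 did not pass, with Hoxb5 and Hoxb6 not measured here. In the D cluster Hoxd4 was called between Hoxd3 (-0.17, adjusted p = 0.493) and Hoxd9 (-0.48, adjusted p = 0.0844). The gene models of Hoxa4 and Hoxa5 lie inside that of Hoxa3, and those of Hoxc4 and Hoxc5 inside that of Hoxc6, so signal from transcripts of these neighbours cannot be told apart from theirs where exons are shared.

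**Figure D4:**
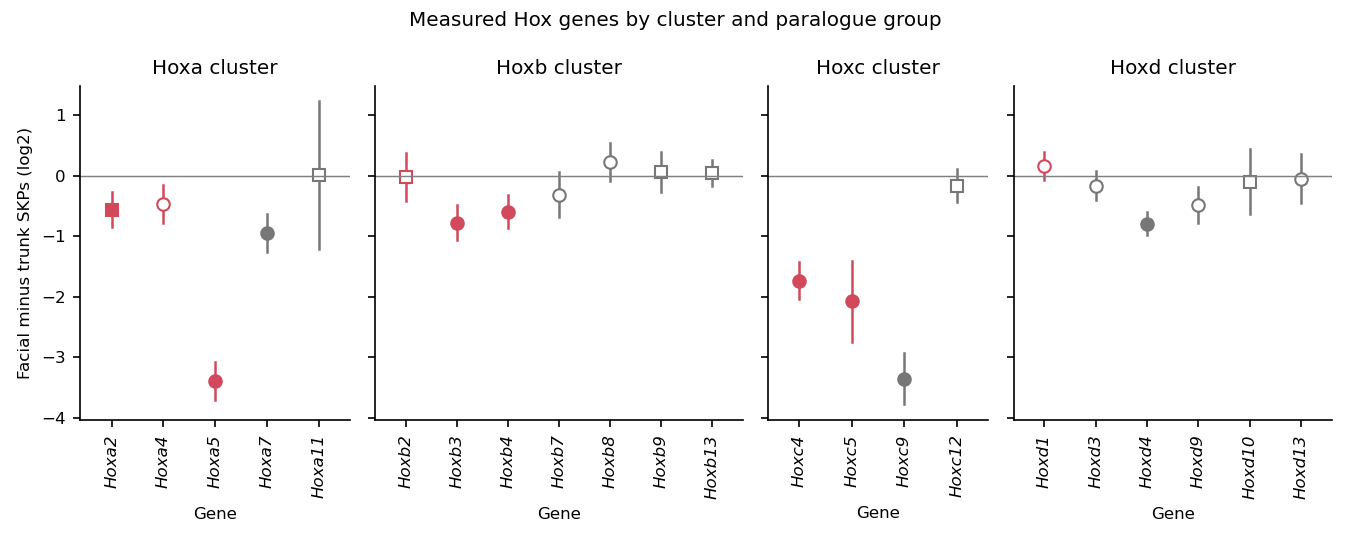
Facial minus trunk SKPs (log2, vertical axis) for the 22 measured Hox genes, by cluster and ordered by paralogue group, with 95% confidence intervals; red marks the 9 anterior genes described and grey the other 13, filled symbols were called at an adjusted p under 0.05, and squares were below background on both sides. The lowest points are Hoxa5 (-3.39), Hoxc9 (-3.35), Hoxc5 (-2.08) and Hoxc4 (-1.73).

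Genes that work with or on Hox genes were read against the 2.7% of all genes called in facial minus trunk. Of 7 measured Pbx, Meis and Pknox cofactors, 1 was called lower and 0 higher (median 0.05, against -0.02 over all genes). This was Meis1, a partner that stabilises Hox proteins on DNA, at 7.57 ± 0.12 in facial, 8.58 ± 0.27 in dorsal and 8.33 ± 0.10 in ventral SKPs and 8.95 ± 0.37 in MSCs. Meis1 facial minus trunk was -0.89 (SE 0.17, adjusted p = 0.0237), and the facial arrays lay below all others. Its paralogue Meis2 went the other way and did not pass (0.86, SE 0.37, adjusted p = 0.245).

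Of 15 measured genes of retinoic acid synthesis, breakdown and reception, 2 were called higher in facial SKPs and 0 lower (median 0.19). Aldh1a2, the main enzyme of retinoic acid synthesis in the embryo, was at 5.05, 5.73 and 6.71 on the facial arrays and 3.62 to 4.11 on all others, whose group means were below background (facial minus trunk 2.03, SE 0.28, adjusted p = 0.00285, at least 3.58-fold). Dhrs3, a retinal reductase, was at 9.03 ± 0.66 in facial, 7.64 ± 0.26 in dorsal and 6.92 ± 0.24 in ventral SKPs and 8.25 ± 0.40 in MSCs (facial minus trunk 1.75, SE 0.27, adjusted p = 0.0057). Aldh1a2 was highest on facial array 3, which also had the highest leukocyte mean. It was higher on facial array 2 (leukocyte mean 6.47) than on facial array 1 (7.99), and 3.62 on dorsal array 1 (7.34). The part of leukocytes in the result was not tested. Between dorsal and ventral SKPs the retinoic acid receptors Rara (-0.57, SE 0.13, adjusted p = 0.0258) and Rarg (0.52, SE 0.11, adjusted p = 0.0205) were called in opposite directions.

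Upstream activators (4 measured) and Polycomb and Trithorax regulators (16 measured), which keep Hox genes silent or active, gave 0 calls in facial minus trunk, with medians of 0.07 and -0.09. In dorsal minus ventral, Egr2, an activator of hindbrain Hox genes, was called (-4.17, SE 0.50, adjusted p = 0.000848), at 7.17, 7.01 and 4.78 on the dorsal arrays, the lowest on dorsal array 3, and 10.22 to 10.70 on the ventral. The Polycomb subunits Eed (-0.60, SE 0.14, adjusted p = 0.0231) and Ring1 (0.36, SE 0.09, adjusted p = 0.0415) were called in opposite directions.

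Outside the 9 genes, those most like Hoxa5, Hoxc4 and Hoxc5 across the 13 arrays included Hoxd4 and Hoxc9. Among 11006 genes above background in at least 1 group, with the 9 themselves left out of the search, the Pearson correlation with Hoxa5 was highest for Hoxd4 (0.95), Polr3d (0.92) and Hoxc9 (0.92). It was highest with Hoxc4 for Hoxc9 (0.95), Hoxd4 (0.90) and the growth factor Fgf10 (0.87), and with Hoxc5 for Hoxc9 (0.87), Mlh3 (0.87) and Cops8 (0.85). The facial arrays lay below all others in Hoxd4 and Hoxc9, as in Hoxa5 and Hoxc4, and a correlation over all arrays carries that split. Nearest to Hoxb3 were Rabif (0.88), Ranbp6 (0.88) and Socs4 (0.88), and nearest to Hoxb4 were Letmd1 (0.88), Txndc12 (0.86) and Mycn (0.83).

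Within the set, Hoxc4 and Hoxc5 were the most alike (r = 0.92 over 13 arrays, and 0.95 over the 10 arrays without facial ones). Hoxa5 and Hoxc4 had r = 0.82 over 13 arrays and r = -0.87 over those 10; MSCs were highest in Hoxa5 and lowest of the 3 remaining groups in Hoxc4. Hoxa5 and Hoxb4 likewise went from 0.47 to -0.79. These are descriptions over arrays that share groups and the normalisation, with no test.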

How the data were processed

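Total RNA of 13 isolates was measured, 1 array each. Per the labels, the authors deposited log2 expression values from RMA (core gene summaries, Expression Console). Limma, with no version, is listed in the submitters' processing notes too. No further normalisation was applied, and the median of an array was 4.91 to 5.01. Of 29215 probe sets, 15310 carried 1 symbol and were kept, 323 carried several and 13582 had none in the annotation given. For 527 genes with more than 1 probe set, the brightest by its mean was taken. Groups were taken from the sample titles.

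Group means were fitted with limma 3.58.1 in R 4.3.3, tested on simulated data, with two-sided moderated tests and Benjamini-Hochberg adjustment over 14506 genes; no filter on low values was used. Precision is limited by how few arrays there are. P-values measure the spread between isolates that the series design calls independent. The labels do not say that sample numbers pair isolates, so the numbers were not used in the fit. Deviations of same-numbered arrays had a median correlation of -0.01 (18 pairs, 1 of them over 0.1). With so few arrays a group, this cannot exclude pairing. An "at least" ratio sets the brighter mean against the background of the dimmer side.

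The genes, lists, comparisons and alternatives were chosen with earlier results of these data known. Named are the 9 genes, called genes of each list with the largest differences (up to 4 in facial minus trunk, up to 3 in dorsal minus ventral), other Hox genes, and the 3 genes most like each of the 9 called between single regions. Meis2, which was not called, is named beside Meis1. Of 84 genes in 7 pathway lists, 55 were measured. Alternatives covered the filter, spread model, array weights, arrays fitted, normalisation, block, probe sets, the leukocyte covariate and each array left out; 3 were added after seeing the data (without dorsal array 3 and facial array 3, without MSC arrays 1 and 2, without MSC arrays 3 and 4). Background correction and array slides were not varied.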

Additional observations from a re-analysis of the deposited data

Results flagged for a closer look

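In MSCs, Hoxd1 was 5.65 on MSC array 3, against 5.33 to 5.36 on the other 3, a gap of 0.91 of the whole range of the group, past Dixon's 95% critical value for 4 arrays. This was 1 of 9 genes examined in this way, and chance gives such a gap in about 1 of 20 groups. Of the other genes, Hoxb3 came closest, with MSC array 2 the lowest at 5.53 (gap 0.81 of the range).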

How the results depend on the processing

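Over 26 alternatives, 12 of the 24 calls of single genes held in all, and none of the 24 changed direction. The counts of called genes that moved by over 1.5 times were as follows. Facial minus trunk went from 6 to 3 with the replicate block and with the leukocyte covariate, and facial minus dorsal from 4 to 2 in a fit of the groups compared and with that covariate. Array weights gave 7 in facial minus ventral, 1 in dorsal minus ventral and 6 in ventral minus MSCs. Dorsal minus MSCs had 1 in a fit of the groups compared, facial minus MSCs 2 with the leukocyte covariate, and ventral minus MSCs 1 with the replicate block and 1 without MSC arrays 3 and 4. The causes were not tested. With 1 array left out, the counts ran from 3 to 6 (facial minus trunk; 3 without facial array 1), 0 to 1 (dorsal minus ventral; 1 without dorsal array 3 or MSC array 2), 2 to 4 (facial minus MSCs; 2 without facial array 1) and 1 to 4 (ventral minus MSCs; 1 without ventral array 1 or 3). Pairing by sample number was not excluded (above). With the replicate block the number of all genes called in facial minus trunk fell from 391 to 173.

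Signs turned only in differences that did not pass. Hoxb2 was 0.10 (array weights), 0.32 (leukocyte covariate) and 0.23 (without dorsal array 3 and facial array 3) in facial minus trunk, 0.17 under each of the last 2 in facial minus dorsal, 0.058, 0.45 and 0.14 under the 3 in facial minus MSCs, and -0.024 under the last in dorsal minus MSCs. Hoxd1 was 0.030 (leukocyte covariate) in facial minus dorsal, -0.059 (without MSC arrays 1 and 2) in dorsal minus MSCs, and 0.030 (array weights), 0.083 (leukocyte covariate), 0.021 (without dorsal array 3 and facial array 3) and 0.072 (without MSC arrays 3 and 4) in facial minus MSCs. Hoxa4 was 0.028 (array weights) and 0.0017 (quantile normalisation again) in dorsal minus ventral and 0.26 (leukocyte covariate) in facial minus MSCs, where Hoxb4 was 0.079. With 1 array left out, Hoxb2 ran from -0.13 to 0.15 (facial minus trunk), -0.024 to 0.27 (dorsal minus MSCs) and -0.15 to 0.14 (facial minus MSCs). Hoxd1 ran from -0.12 to 0.050 (facial minus dorsal), -0.063 to 0.11 (dorsal minus MSCs) and -0.081 to 0.064 (facial minus MSCs). Hoxa4 ran from -0.086 to 0.15 and Hoxc5 from -0.013 to 0.19 in dorsal minus ventral. Hoxa2 ran from -0.034 to 0.13 (dorsal minus MSCs) and from -0.16 to 0.039 (ventral minus MSCs). Signal near background limits Hoxa2 and Hoxb2.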

Other observations

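Some genes had exactly the same deposited value on several arrays. Hoxd1 read 5.34 on facial arrays 1 and 3 and MSC array 1, and Hoxb3 read 6.08 on dorsal array 3 and MSC arrays 1 and 3. In all, 4 of the 9 anterior Hox genes had at least 1 repeated value, as did 37.3% of all genes.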
